A study of Mus musculus with 34 samples.

Results

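The urea cycle and ammonia genes are 10 genes of periportal hepatocytes, the liver cells next to the portal vein. They comprise the 5 enzymes of the cycle (Cps1, Otc, Ass1, Asl and Arg1), the cofactor enzyme Nags, the mitochondrial ornithine carrier Slc25a15, and 3 enzymes that release ammonia from amino acids (Gls2, Hal and Sds). They were chosen by symbol from a table of 35976 symbols. All 10 were present, and all 10 passed the filter on low values that left 19295 genes for testing.

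The liver turns ammonia, which is toxic to the brain, into urea. Periportal hepatocytes take up ammonia and amino acids from portal blood and run the cycle partly in mitochondria and partly in the cytosol, whereas a thin rim of cells around the central vein captures what is left as glutamine. Glucagon and glucocorticoids are known to raise transcription of the cycle's enzymes, and insulin is known to lower it.

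The 34 livers came from C57BL/6 mice that were homozygous for TetO-Cas9, a Cas9 gene that needs the rtTA activator, and for Rosa-rtTA, which supplies it. All of the mice, controls included, received an adeno-associated virus (AAV) with a guide RNA and ate a Western diet for 3 months. The guide was directed at Bcl6 (a transcriptional repressor, 5 livers), Irs1 (an adaptor of the insulin receptor, 5), Smyd2 (a lysine methyltransferase, 6), Srebf1 (an activator of lipid synthesis genes, 5) or Tbx3 (a T-box transcription factor, 7). The control group pooled 4 livers with a guide against GFP (sgGFP) and 2 with a guide against LacZ (sgLacZ). Groups are called knockouts (KO) after their labels. Each liver gave 1 library of total RNA, so that fewer hepatocytes and less RNA per hepatocyte cannot be told apart. The labels used here state neither the animals' age and sex nor the share of hepatocytes cut.

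Levels are in FPKM, a read count divided by transcript length and by library size, and changes are differences of log2(FPKM + 1). A gene is called where the limma test over all 34 livers gave an adjusted p under 0.05. By an estimate from the low values of the table, libraries held 2120000 to 3120000 counted reads. Nags, which had the lowest mean FPKM of the 10 genes, would then rest on 183 to 420 reads per liver. All 10 hepatocyte markers examined (such as Alb, the gene of serum albumin) passed the filter, and kidney markers summed to at most 1.24 FPKM in any liver. The mRNA of the targeted gene passed the test in none of the 5 knockouts, and the labels do not state where the guides cut. Irs1 mRNA was 29.8 ± 3.92 FPKM in Irs1 KO against 23.5 ± 2.92 in control, with all 5 livers above the control mean (limma adjusted p = 0.165). Tbx3 mRNA was 135 ± 59.5 in Tbx3 KO against 98.3 ± 39.5, with 6 of 7 above the control mean (0.441). Bcl6 and Smyd2 stood at 95.8% and 81.4% of the control mean in their own knockouts. In 4 of the Srebf1 KO livers Srebf1 stood between 498.8 and 632 FPKM, but the library labelled Srebf1 KO replicate 1 held 1908, within the control range of 1095 to 2177. In 5 livers (sgGFP replicates 1 and 3, Smyd2 KO replicates 5 and 6, Tbx3 KO replicate 7) the markers of bile duct cells summed to 1658 to 2925 FPKM, against at most 1032 in the other 29. Calls that were lost without these livers are given beside the result.

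In GRCm38 with the GENCODE M21 annotation, all 10 genes are protein-coding. Cps1, which makes carbamoyl phosphate from ammonia and bicarbonate, lies at chr1:67123026-67231259 on the plus strand. Otc, which joins carbamoyl phosphate to ornithine, is X-linked at chrX:10252305-10321024 (plus). Ass1 (chr2:31470207-31520672, plus) makes argininosuccinate and Asl (chr5:130011258-130029247, minus) splits it into arginine and fumarate. Arg1 (chr10:24915221-24927484, minus) releases urea from arginine and regenerates ornithine, which Slc25a15 (chr8:22375551-22398597, minus) carries back into mitochondria. Nags (chr11:102145513-102149477, plus) makes N-acetylglutamate, the obligate activator of the Cps1 enzyme. Gls2 (chr10:128194457-128210004, plus) is liver-type glutaminase, Hal (chr10:93488768-93519304, plus) is histidine ammonia-lyase, and Sds (chr5:120476526-120483932, plus) is serine dehydratase. Gls2 overlaps Spryd4, Sds overlaps Plbd2 and the antisense gene Gm15690, and Nags overlaps the antisense gene Gm11586, in each case on the opposite strand. The strand setting of the counting is not given, so reads of these pairs may not be separated.

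Upstream sequence is shown for the members that the RefSeq promoter table for GRCm38.p6 holds, which are 5 of 10. Of these, Hal, Otc, Ass1 and Slc25a15 were called in at least 1 knockout. Nags was called in none, which does not show that it was unchanged. Each is written 5′ to 3′ on the gene's strand and ends at the base before the gene's RefSeq start, except for Ass1. Capitals mark a match to 1 of 5 motifs.
Hal, chr10:93488618-93488767 (plus): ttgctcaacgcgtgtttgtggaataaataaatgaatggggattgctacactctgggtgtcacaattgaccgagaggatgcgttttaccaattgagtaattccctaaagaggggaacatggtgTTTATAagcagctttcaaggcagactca
Nags, chr11:102145363-102145512 (plus): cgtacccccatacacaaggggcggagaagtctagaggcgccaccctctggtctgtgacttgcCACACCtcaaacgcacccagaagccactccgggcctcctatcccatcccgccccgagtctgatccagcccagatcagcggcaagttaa
Otc, chrX:10252155-10252304 (plus): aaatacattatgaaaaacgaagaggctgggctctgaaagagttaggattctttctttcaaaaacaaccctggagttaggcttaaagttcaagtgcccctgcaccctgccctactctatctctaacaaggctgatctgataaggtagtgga
Ass1, chr2:31470120-31470206 (plus): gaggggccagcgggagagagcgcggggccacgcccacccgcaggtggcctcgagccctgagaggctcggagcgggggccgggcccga
Slc25a15, chr8:22398622-22398771 (minus): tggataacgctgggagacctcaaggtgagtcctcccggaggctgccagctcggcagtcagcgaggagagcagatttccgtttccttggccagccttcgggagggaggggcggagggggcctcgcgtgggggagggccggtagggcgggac

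For Ass1 the 63 bases nearest the RefSeq start are left out, because GENCODE M21 places them inside the gene. For Slc25a15 the RefSeq start (22398621) lies upstream of the GENCODE start given above. Both strands of the 250 bases before each RefSeq start were searched for the TATA box TATAAA, the cAMP response half-site TGACG, the T-box core GGTGTG, the palindrome TTCNNNGAA bound by STAT and BCL6 type factors, and the glucocorticoid receptor half-site TGTTCT. The Hal window held TATAAA on its opposite strand (printed as TTTATA), 28 to 23 bases before the start. The Nags window held GGTGTG on its opposite strand (printed as CACACC), 88 to 83 bases before the start. No other match was found in the 5 windows. Among 32851 promoters of the same length, TATAAA was in 12.4%, TGACG in 17.8%, GGTGTG in 16.3%, TTCNNNGAA in 7.02% and TGTTCT in 16.1%. A match describes letters only, and no binding was measured here.

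The first question was whether these genes differ from control in each knockout. Calls were in Tbx3 KO, Irs1 KO and Bcl6 KO livers, and all were higher. In Tbx3 KO livers 7 of 10 were called higher, where 1.17% of all genes tested were called higher. In Irs1 KO livers 7 of 10 were called higher (3.24% of all genes), in Bcl6 KO livers 3 of 10 (2.95% of all genes), in Srebf1 KO livers 0 of 10 (0.197% of all genes) and in Smyd2 KO livers 0 of 10 (0% of all genes). None of the 10 was called lower, where 1.37% of all genes were called lower in Tbx3 KO, 7.61% in Irs1 KO, 3.19% in Bcl6 KO, 0.181% in Srebf1 KO and 0% in Smyd2 KO. Without sgGFP replicate 1 the Irs1 KO count was 4. With 1 library left out, the Tbx3 KO count ranged from 5 to 9 and the Bcl6 KO count from 2 to 4. At an unadjusted limma p under 0.05 the Smyd2 KO count was 5 (Cps1, Otc, Nags, Gls2 and Hal) and the Srebf1 KO count was 6 (Otc, Asl, Nags, Gls2, Slc25a15 and Hal). At that same unadjusted cut stood 7.17% of all genes in Smyd2 KO and 13.1% in Srebf1 KO, in either direction. The median log2 change of the 10 genes was 0.74 in Tbx3 KO, 0.60 in Irs1 KO, 0.39 in Bcl6 KO, 0.35 in Srebf1 KO and 0.31 in Smyd2 KO. Over all genes tested the corresponding medians were -0.06, -0.12, -0.07, -0.05 and 0.00. Scaling each library to its median moved the median of all genes in Irs1 KO from -0.12 to -0.01 and that of the 10 genes from 0.60 to 0.73. It moved the share of higher among all calls from 29.8% to 51% in Irs1 KO, from 48.1% to 64.3% in Bcl6 KO and from 45.9% to 58.6% in Tbx3 KO, with 7, 3 and 8 of the 10 genes called. The 5 comparisons share the same 6 control livers, so they are not independent of each other.

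**Figure D1:**
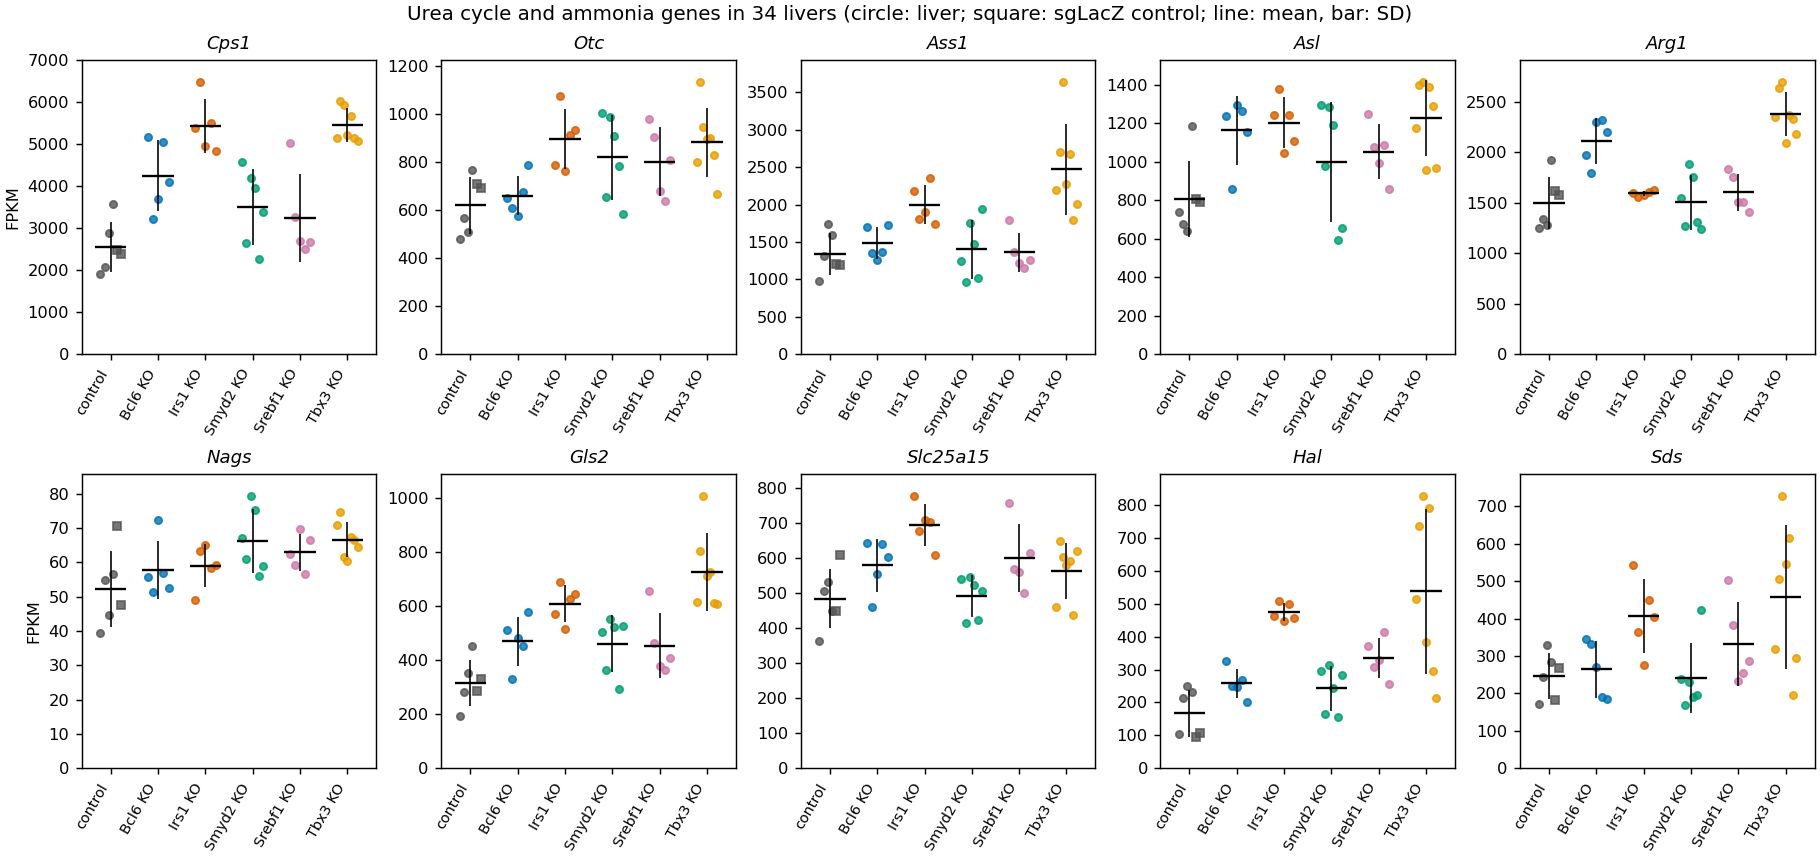
FPKM of each of the 10 genes (vertical axes, from 0) in every liver, by group (horizontal axes). Circles are livers, squares are the sgLacZ controls, the horizontal line is the group mean and the vertical bar its SD. Cps1 in the 7 Tbx3 KO livers lies between 5073 and 6021 FPKM, above all 6 control livers, whose highest is 3572.

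Cps1, the entry enzyme of the cycle, had the highest mean FPKM of the 10 genes, and its mRNA was about 2 times the control level in 2 knockouts. Control livers held between 1916 and 3572 FPKM with a median of 2430. Tbx3 KO livers held 5073 to 6021 with a median of 5223, and the Irs1 KO livers held 5392, 6486, 4955, 5507 and 4837. Every liver of both groups was above every control liver. The means were 5458 ± 405 (SD, n = 7) in Tbx3 KO and 5435 ± 652 (n = 5) in Irs1 KO, against 2554 ± 602 (n = 6) in control. The log2 changes were 1.12 ± 0.16 (SE, limma adjusted p = 6.23e-05) and 1.11 ± 0.18 (limma adjusted p = 0.000116). Bcl6 KO livers held 5166, 3221, 3698, 5063 and 4112 FPKM, which overlapped the control range in 1 liver. Their log2 change was 0.74 ± 0.18 (SE, limma adjusted p = 0.00662). Smyd2 KO livers ranged from 2259 to 4581 (median 3667) and Srebf1 KO livers from 2514 to 5035. Both overlapped the controls, with limma adjusted p of 0.514 and 0.433.

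Otc, the second enzyme, showed smaller differences with overlapping groups. Control livers held 478 to 765 FPKM (median 628). Irs1 KO livers held 788, 1073, 763, 911 and 930, and Tbx3 KO livers held 667 to 1132 (median 897). The lowest liver of each knockout lay within the control range. Log2 changes were 0.54 ± 0.15 (SE, limma adjusted p = 0.0182) in Irs1 KO and 0.51 ± 0.14 (limma adjusted p = 0.0363) in Tbx3 KO. The Irs1 KO call was lost without Irs1 KO replicate 2 (0.0622) or sgGFP replicate 1 (0.0536), and the Tbx3 KO call without any of 7 libraries (sgGFP replicates 1, 2 and 3, Tbx3 KO replicates 2, 3, 4 and 5), with limma adjusted p up to 0.114. Without the 5 livers rich in bile duct markers neither passed, with limma adjusted p of 0.0889 in Irs1 KO and 0.0736 in Tbx3 KO. In Bcl6 KO livers Otc stood at 659 ± 81.6 against 619 ± 118 in control (limma adjusted p = 0.792), although Cps1 in the same livers was called higher.

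Ass1, the first cytosolic enzyme, was highest in Tbx3 KO livers. Control livers held 984 to 1741 FPKM (median 1258) and Tbx3 KO livers 1791 to 3639 (median 2279), with no overlap. The means were 2470 ± 612 and 1338 ± 281, a log2 change of 0.88 ± 0.16 (SE, limma adjusted p = 0.00161). The 5 Irs1 KO livers held 2179, 1810, 1907, 2356 and 1736, of which the lowest reached into the control range. Their log2 change was 0.59 ± 0.17 (SE, limma adjusted p = 0.026), and it did not pass without sgGFP replicate 1 (0.0731) or without Irs1 KO replicate 1 (0.0633) or 4 (0.0702). The Bcl6, Smyd2 and Srebf1 knockouts had means of 1485, 1401 and 1360 FPKM, and none was called.

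Asl, the next enzyme, was called higher in Irs1 KO and Tbx3 KO. Irs1 KO livers held 1245, 1379, 1044, 1244 and 1108 FPKM, and Tbx3 KO livers 958 to 1416 (median 1293). The means were 1228 ± 199 FPKM in Tbx3 KO and 1204 ± 131 in Irs1 KO, against 806 ± 196 in control. The log2 changes were 0.62 ± 0.16 (SE, limma adjusted p = 0.0322) and 0.60 ± 0.18 (limma adjusted p = 0.0253). Control livers spanned 639 to 1185 FPKM (median 766), so both knockouts overlapped them, and the highest control liver stood apart from the other 5, which were at or below 805. The Bcl6 KO mean of 1163 ± 179 missed the threshold (log2 change 0.54 ± 0.18 SE, limma adjusted p = 0.0619). Leaving out 1 library ended the Asl call in Irs1 KO in 6 of 11 cases (sgGFP replicates 1, 2 and 3, Irs1 KO replicates 1, 2 and 4) and in Tbx3 KO in 6 (sgGFP replicates 1, 2 and 3, Tbx3 KO replicates 2, 3 and 5).

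Arg1, the last enzyme, was called higher in Tbx3 KO and Bcl6 KO livers and was not called in Irs1 KO. Control livers held 1251 to 1918 FPKM (median 1456). Tbx3 KO livers held 2094 to 2695 (median 2346), all above the controls, and Bcl6 KO livers held 1973, 1789, 2296, 2317 and 2195, of which 1 lay within the control range. The log2 changes were 0.68 ± 0.10 (SE, limma adjusted p = 9.9e-05) and 0.51 ± 0.11 (limma adjusted p = 0.00302). Irs1 KO livers held 1598, 1557, 1575, 1609 and 1625 FPKM, a spread of 26.7 (SD) around 1593. Their log2 change was 0.11 with a 95% interval of -0.12 to 0.33 (limma adjusted p = 0.597). In the same 5 livers Cps1 was about 2 times the control mean.

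**Figure D2:**
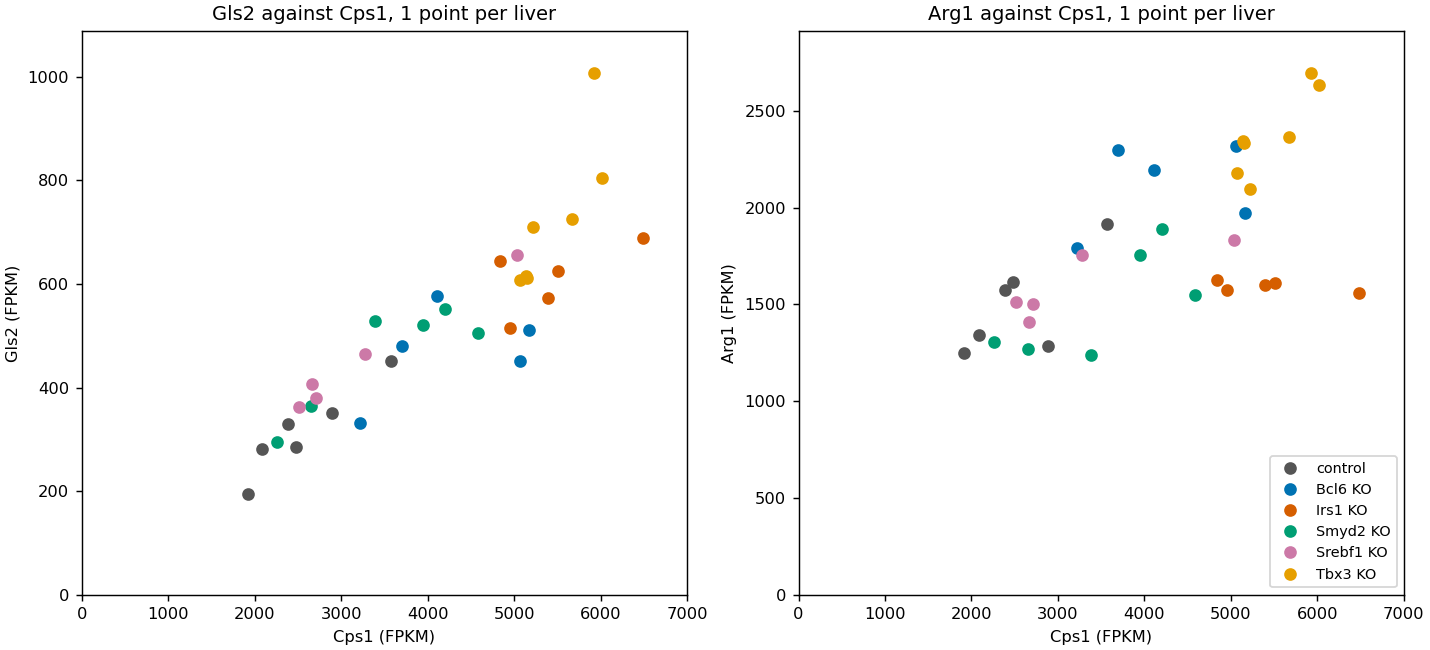
Gls2 against Cps1 (left) and Arg1 against Cps1 (right), both axes in FPKM from 0, with 1 point per liver coloured by group. Gls2 follows Cps1 over all 34 livers, while the 5 Irs1 KO livers hold 4837 to 6486 FPKM of Cps1 at 1557 to 1625 FPKM of Arg1.

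Direct contrasts between knockouts bore on these differences, since the controls do not enter their means. Arg1 was higher in Tbx3 KO than in Irs1 KO livers by 0.57 ± 0.11 on the log2 scale (limma adjusted p = 0.00205), and higher in Bcl6 KO than in Irs1 KO by 0.40 ± 0.12 (limma adjusted p = 0.0202). Cps1 differed between Irs1 KO and Tbx3 KO by -0.01, with a 95% interval of -0.36 to 0.33. Among 10 pairs of knockouts, the largest count was in Smyd2 KO against Tbx3 KO, where 5 of 10 genes (Cps1, Ass1, Arg1, Gls2 and Hal) were lower in Smyd2 KO and 0.42% of all genes were called lower. That count was 2 without Smyd2 KO replicate 2 or 5 or Tbx3 KO replicate 2, 3 or 5, and 3 without Smyd2 KO replicate 1 or 4 or Tbx3 KO replicate 1 or 4. Without the 5 livers rich in bile duct markers, Cps1 was not called in this pair (-0.55, limma adjusted p = 0.083). Srebf1 KO against Tbx3 KO gave 3 lower calls (Cps1, Ass1 and Arg1, 0.358% of all genes), and Bcl6 KO against Tbx3 KO gave 3 (Ass1, Gls2 and Hal, 5.04% of all genes), or 1 without Bcl6 KO replicate 2 or 4 or Tbx3 KO replicate 3. In Irs1 KO against Smyd2 KO, 3 genes were higher in Irs1 KO (Cps1, Slc25a15 and Hal, 1.04% of all genes). That count was 0 without Irs1 KO replicate 1 or Smyd2 KO replicate 2 or 5, 1 without Irs1 KO replicate 2 or 4, and 5 without Smyd2 KO replicate 6. Without the 5 livers rich in bile duct markers it was 1, with Cps1 at 0.52 (limma adjusted p = 0.113) and Hal at 0.94 (0.0504) no longer called. No pair was called for Otc, Asl, Nags or Sds.

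The other pairs gave at most 2 calls each. Bcl6 KO against Irs1 KO gave Arg1 higher (6.59% of all genes called higher) and Hal lower (4.74% called lower, log2 change -0.89 ± 0.30, limma adjusted p = 0.0499). Bcl6 KO exceeded Smyd2 KO in Arg1 alone (2.8% of all genes) and Srebf1 KO in Arg1 alone (4.08%). Irs1 KO exceeded Srebf1 KO in Cps1 alone (0.415%), and Irs1 KO against Tbx3 KO gave Arg1 alone, lower in Irs1 KO (1.63%). Smyd2 KO against Srebf1 KO gave 0 of 10 by limma (0.0777% of all genes called in either direction). At an unadjusted limma p under 0.05 it gave 1, Slc25a15, where 9.37% of all genes passed. The Bcl6 KO against Irs1 KO count fell to 0 without Bcl6 KO replicate 3 or 4, and to 1 without Bcl6 KO replicate 2 or any 1 of the Irs1 KO livers. The Bcl6 KO against Srebf1 KO count was 0 without Bcl6 KO replicate 3 or 4 or Srebf1 KO replicate 3, 4 or 5, and 2 when the library labelled Srebf1 KO replicate 1 was left out. The Irs1 KO against Srebf1 KO call was lost without Irs1 KO replicate 2 or Srebf1 KO replicate 3, 4 or 5.

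The 5 cycle enzymes together took 0.234% ± 0.0399 (SD, n = 6) of the summed FPKM in control livers. The share was 0.414% ± 0.0431 (n = 7) in Tbx3 KO, 0.373% ± 0.0289 (n = 5) in Irs1 KO, 0.319% ± 0.0381 (n = 5) in Bcl6 KO, 0.277% ± 0.0551 (n = 6) in Smyd2 KO and 0.268% ± 0.0515 (n = 5) in Srebf1 KO. The lowest Tbx3 KO liver (0.377%) and the lowest Irs1 KO liver (0.344%) were both above the highest control liver (0.302%), and the other 3 knockouts overlapped the controls. These shares were not tested. They add values that appear to be sums over transcripts (Cps1, Otc and Asl) to single values (Ass1 and Arg1).

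**Figure D3:**
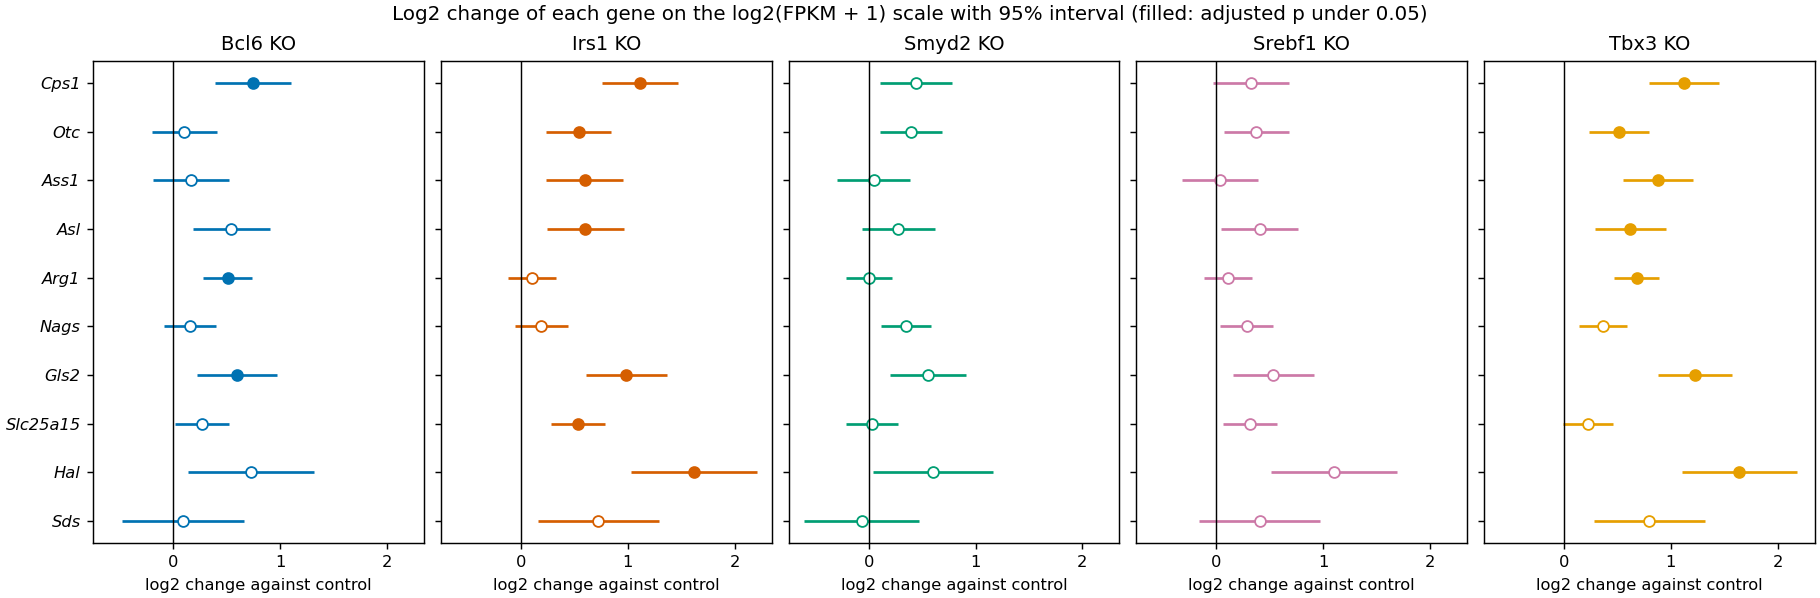
Log2 change of each gene against control (horizontal axes) with its 95% interval, 1 panel per knockout. Filled points are called by limma (adjusted p under 0.05). All filled points lie to the right of 0, with 7 in Tbx3 KO, 7 in Irs1 KO, 3 in Bcl6 KO and none in Smyd2 KO or Srebf1 KO.

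Nags, which makes the activator of Cps1, did not pass in any comparison. Its FPKM were 39.3 to 70.5 in control (median 51.2), 60.4 to 74.8 in Tbx3 KO (median 66.5) and 56.1 to 79.4 in Smyd2 KO (median 64.1). Log2 changes were 0.36 ± 0.11 (SE) in Tbx3 KO (limma adjusted p = 0.0689) and 0.35 ± 0.11 in Smyd2 KO (limma adjusted p = 0.416). Every Tbx3 KO liver was above the control mean, but the control range was wide because sgLacZ replicate 1 held 70.5. Without that library the Tbx3 KO change was 0.45 with limma adjusted p = 0.019, and without Tbx3 KO replicate 7 it was 0.37 with 0.045. Without any other single library it did not pass, with limma adjusted p up to 0.194, and without the 5 livers rich in bile duct markers it was 0.23 (0.286). Over all 6 groups, Nags was also the 1 gene of the 10 that the limma F test did not call (adjusted p = 0.108).

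Slc25a15, the ornithine carrier, was called against control in Irs1 KO. The 5 Irs1 KO livers held 779, 678, 711, 703 and 611 FPKM and the controls 363 to 611 (median 478). The lowest Irs1 KO liver (611.2) was just above the highest control liver (610.6). This was a log2 change of 0.53 ± 0.12 (SE, limma adjusted p = 0.0052). In Tbx3 KO livers, where 7 other members were called, Slc25a15 changed by 0.22 with a 95% interval of -0.01 to 0.45 (limma adjusted p = 0.309). The difference between Irs1 KO and Tbx3 KO was 0.31 ± 0.12 and did not pass (limma adjusted p = 0.173).

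Gls2, the glutaminase that feeds ammonia to Cps1 inside mitochondria, rose in 3 knockouts. Control livers held 195 to 451 FPKM (median 307). Tbx3 KO livers held 608 to 1007 (median 710), and Irs1 KO livers held 572, 689, 515, 625 and 645. Every liver of both groups was above all 6 controls. The log2 changes were 1.22 ± 0.17 (SE, limma adjusted p = 3.45e-05) and 0.99 ± 0.18 (limma adjusted p = 0.000837). Bcl6 KO livers held 510, 332, 480, 452 and 577, with a log2 change of 0.60 ± 0.18 (SE, limma adjusted p = 0.0483). This call was lost when any of 8 libraries was left out (Bcl6 KO replicates 1, 3, 4 and 5, sgGFP replicates 1 and 2, and both sgLacZ livers), with limma adjusted p up to 0.147, and when the 5 livers rich in bile duct markers were left out (0.122). Means in Smyd2 KO (461 ± 106) and Srebf1 KO (454 ± 119) were close to that of Bcl6 KO (470 ± 90.5), with limma adjusted p of 0.412 and 0.199 against control.

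Hal, which opens histidine breakdown by releasing ammonia, had the largest changes of the 10 genes in Tbx3 KO and in Irs1 KO. Control livers held 96.6 to 251 FPKM (median 159). The 2 sgLacZ livers and sgGFP replicate 1 were at or below 106, and the other 3 at or above 212. Irs1 KO livers held 464, 508, 446, 499 and 456, all above the controls, with a log2 change of 1.62 ± 0.29 (SE, limma adjusted p = 0.000451). Tbx3 KO livers spread from 213 to 827 (median 515) and overlapped the controls at their lowest liver, replicate 7. Their log2 change was 1.64 ± 0.26 (SE, limma adjusted p = 0.000293). The SE uses a spread shared by all groups, while the SD was 250 FPKM in Tbx3 KO and 27.3 in Irs1 KO. In a fit of Tbx3 KO and control alone the Hal call was lost (limma adjusted p = 0.0565). Srebf1 KO livers held 370, 309, 327, 415 and 256, also above every control, as 0.793% of all genes did. The Srebf1 KO change of 1.10 ± 0.29 (SE) missed the threshold (limma adjusted p = 0.083), and without sgGFP replicate 4 it passed (0.0482). Without the library labelled Srebf1 KO replicate 1 it was 1.06 (0.17).

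Sds, which turns serine into pyruvate and ammonia, was not called in any comparison with control. Control livers held 172 to 331 FPKM (median 256) and Tbx3 KO livers 195 to 728 (median 506). Irs1 KO livers held 543, 365, 276, 450 and 405. Both overlapped the controls. Log2 changes were 0.80 ± 0.26 (SE, limma adjusted p = 0.086) in Tbx3 KO and 0.72 ± 0.28 (limma adjusted p = 0.0903) in Irs1 KO. Without Tbx3 KO replicate 6 the Tbx3 KO change was 0.98 (0.0216), and without replicate 7 it was 0.88 (0.0357). The limma F test over all 6 groups called Sds (adjusted p = 0.0416) while no single contrast did.

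The limma F test over the 6 groups called 9 of the 10 genes, against 16.7% of all genes tested. Among the 5 knockouts alone it called 6 (Cps1, Ass1, Arg1, Gls2, Slc25a15 and Hal), against 14.5% of all genes. Genes whose knockout livers all lay above every control liver numbered 4 in Tbx3 KO (Cps1, Ass1, Arg1 and Gls2, against 0.384% of all genes), 4 in Irs1 KO (Cps1, Gls2, Slc25a15 and Hal, against 2.21%), 1 in Srebf1 KO (Hal, against 0.793%), 0 in Bcl6 KO (against 2.35%) and 0 in Smyd2 KO (against 0.187%). The sgGFP and sgLacZ controls differed in 0 of 10 genes by limma, where 0.0104% of all genes were called. The largest of the 10 differences was that of Hal, higher in sgGFP livers by 0.90 ± 0.39 (limma adjusted p = 0.672).

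Other measures moved with these groups. The summed FPKM of the 10 hepatocyte markers was 174716 to 243551 in Bcl6 KO livers, against 89501 to 113206 in control, and Alb alone averaged 131469 against 45811. In Tbx3 KO the hepatocyte sum was 98821 to 114386, and in Irs1 KO 120336 to 145272, where 4 of the 10 markers were called higher. In Bcl6 KO 5 of the 10 were called higher, and in Tbx3 KO 1 (Trf) was called lower. The bile duct markers summed to 634 to 2925 FPKM in control, 189 to 487 in Irs1 KO, 409 to 1032 in Bcl6 KO and 253 to 1780 in Tbx3 KO. Of the 6 tested, 1 was called lower in Bcl6 KO (Sox9) and 1 in Irs1 KO (Spp1). The stellate and fibroblast markers summed to 771 to 1684 in control, 586 to 685 in Irs1 KO and 412 to 1444 in Tbx3 KO, with 4 of 7 called lower in Irs1 KO and 2 of 7 in Tbx3 KO. The endothelial markers summed to 788 to 890 FPKM in Bcl6 KO against 557 to 766 in control, with no overlap and 4 of 7 called higher, and in Irs1 KO 2 of 7 were called lower (sums of 442 to 665). In Irs1 KO the lymphocyte markers summed to 132 to 232 against 282 to 556 in control (1 of 6 called lower), and the erythroid markers to 497 to 714 against 299.7 to 459 (1 of 4 tested called higher). The called erythroid gene was Alas2, the only 1 of the 4 with a positive change, and their median log2 change was -0.22. The part of these cell type markers in the results was not tested, with 1 exception. Without the 5 livers rich in bile duct markers, 6 of 10 genes were called higher in Tbx3 KO, 6 in Irs1 KO and 2 in Bcl6 KO. All of these member genes were also called with those livers included. Without those livers, 320 of all 19295 genes were called higher in Tbx3 KO, 514 in Irs1 KO and 547 in Bcl6 KO.

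Within groups, single livers were high or low in many of the genes at once. sgGFP replicate 1 was the lowest control liver for 8 of the 10 genes, and of all 34 livers for 5 (Cps1, Otc, Nags, Gls2 and Slc25a15). Tbx3 KO replicate 3 was the highest of 34 for 6 (Ass1, Asl, Arg1, Gls2, Hal and Sds). The library labelled Srebf1 KO replicate 1, in which Srebf1 was not low, was the highest of its group for 8 of the 10 genes. Without it the Srebf1 KO changes of Cps1 and Gls2 went from 0.32 to 0.15 and from 0.53 to 0.39, and Ass1 went from 0.03 to -0.07. None of the 10 was called in Srebf1 KO either way.

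Across the 34 livers the genes varied together to different degrees. All 45 pairs had a positive Pearson r of log2(FPKM + 1), with a median of 0.58. The highest was Cps1 with Gls2 at 0.92, followed by Ass1 with Gls2 at 0.86, and the lowest was Nags with Sds at 0.03. After each group's mean was taken off, the median was 0.49 and 44 of 45 pairs stayed positive, with Cps1 and Gls2 at 0.84. The livers share a library type, a depth range and, within a group, a guide, so these values describe the 34 livers only. Of genes outside the 10, those most like their mean pattern were Gnmt (glycine N-methyltransferase, r = 0.85), Cth (cystathionine gamma-lyase, 0.82), Ttc36 (0.81), Nlrp6 (0.81) and Uroc1 (urocanase, which follows Hal in histidine breakdown, 0.79). The most opposite were Cbr3 (-0.82), Casc4 (-0.82), Tmprss11f (-0.81), Serpina7 (-0.80) and Cd2ap (-0.80). Cbr3 had a mean of only 1.93 FPKM, close to the filter on low values. All of these genes were picked as the extremes among the genes tested.

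Genes that continue the pathways of Hal and Sds were followed as a list of 14, of which 13 were tested. In Tbx3 KO 5 were called higher and 0 lower, in Irs1 KO 5 and 0, in Bcl6 KO 2 and 0, and 0 in the other 2 knockouts. The median log2 change of the 13 was 0.26 in Tbx3 KO, 0.31 in Irs1 KO and 0.28 in Bcl6 KO. The enzymes after Hal rose in Tbx3 KO livers at each step measured. Uroc1 stood at 2057 ± 364 against 1290 ± 178 FPKM in control (limma adjusted p = 0.000366), Amdhd1 (imidazolonepropionase) at 390 ± 111 against 178 ± 42 (7.57e-05) and Ftcd (formiminotransferase cyclodeaminase) at 1571 ± 264 against 835 ± 103 (7.88e-07). In Irs1 KO livers Amdhd1 rose to 313 ± 25.6 (limma adjusted p = 0.00239) and Ftcd to 1128 ± 42.5 (0.00838), while Uroc1 at 0.31 ± 0.12 (SE, log2) was not called. Gldc, of the glycine cleavage system, rose by 1.05 ± 0.15 in Tbx3 KO (limma adjusted p = 7.47e-05) by 0.76 ± 0.17 in Bcl6 KO (0.00285) and in Irs1 KO from 63.6 to 88.3 FPKM (0.044).

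**Figure D4:**
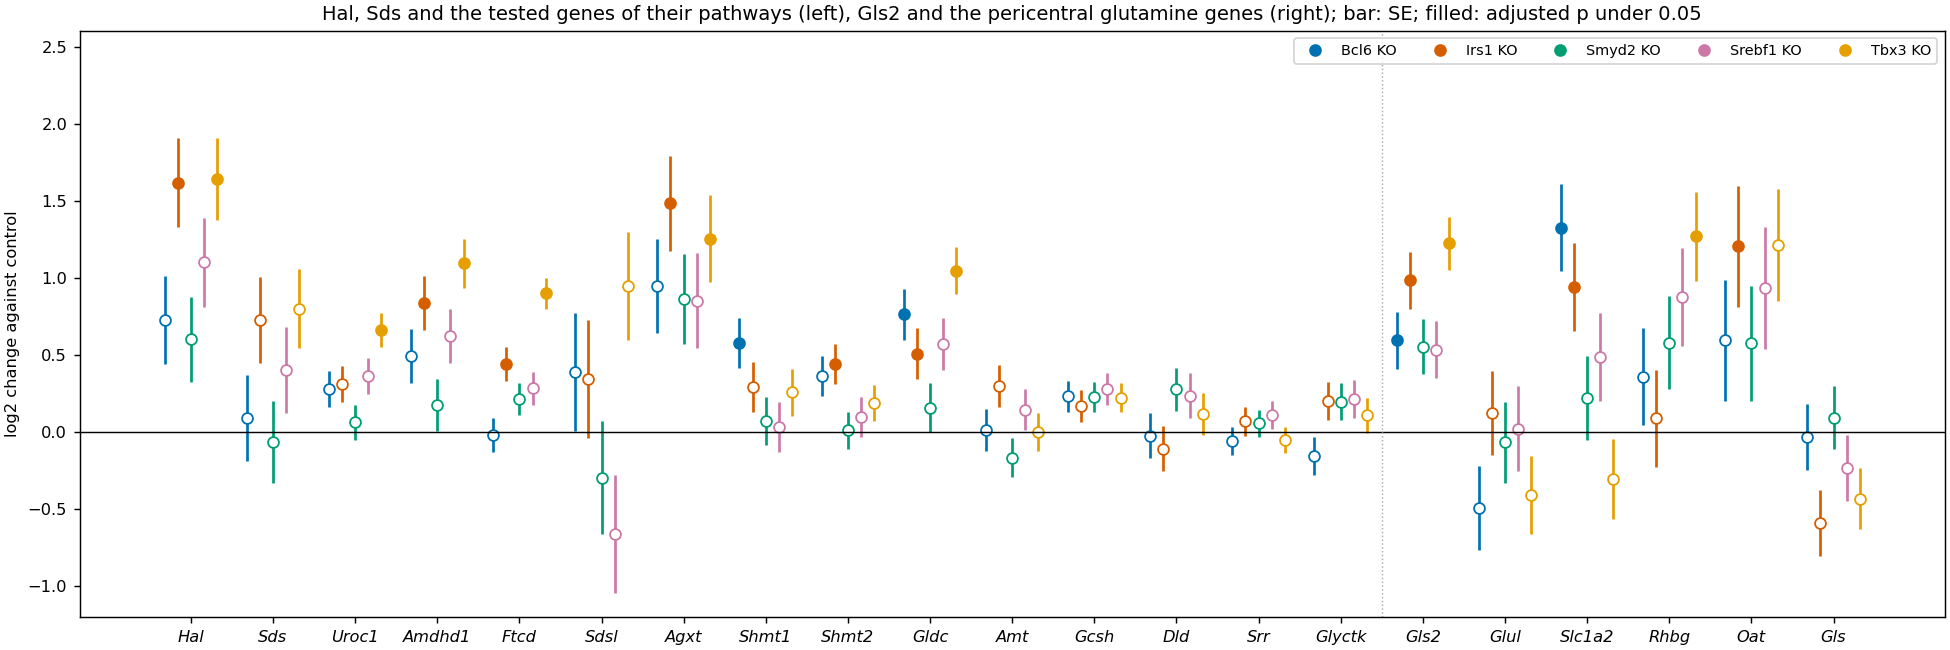
Log2 change against control (vertical axis) with its SE for Hal, Sds and the 13 tested genes of their pathways (left of the dotted line), and for Gls2 and the 5 tested pericentral glutamine genes (right), coloured by knockout. Filled points are called by limma (adjusted p under 0.05). Amdhd1 and Ftcd are filled for Irs1 KO and Tbx3 KO, and Glul is open for all 5 knockouts.

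Of the 5 tested genes that handle glutamine around the central vein, 1 was called higher in Bcl6 KO, 2 in Irs1 KO and 1 in Tbx3 KO, with 0 lower, where 2.95%, 3.24% and 1.17% of all genes were called higher. Glul, glutamine synthetase, was not called in any knockout, with log2 changes from -0.49 in Bcl6 KO to 0.13 in Irs1 KO. Slc1a2, a glutamate transporter, rose in Bcl6 KO (1507 ± 260 against 646 ± 251 FPKM, limma adjusted p = 0.00238) and in Irs1 KO (1145 ± 98.9, 0.0293), and stood at -0.31 ± 0.26 in Tbx3 KO. Rhbg, an ammonium transporter, rose from 10.7 ± 6.61 to 24.5 ± 6.22 in Tbx3 KO (limma adjusted p = 0.0124). Oat, ornithine aminotransferase, rose from 469 ± 281 to 944 ± 162 in Irs1 KO (limma adjusted p = 0.0444), and its change of 1.21 ± 0.36 in Tbx3 KO missed the threshold (0.064). The wider list of 20 pericentral markers gave 2 higher and 1 lower in Bcl6 KO, 4 higher in Irs1 KO and 1 higher in Tbx3 KO, with median changes of -0.08, 0.26 and 0.04.

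Of 22 partners that deliver nitrogen to the cycle or use its intermediates, 1 was called higher and 1 lower in Bcl6 KO, 4 and 2 in Irs1 KO, 2 and 0 in Tbx3 KO, and none in Smyd2 KO or Srebf1 KO. Over all genes 2.95% were called higher and 3.19% lower in Bcl6 KO, 3.24% and 7.61% in Irs1 KO, and 1.17% and 1.37% in Tbx3 KO. These shares apply to each gene list described here. Glud1, glutamate dehydrogenase, and Slc25a13, the aspartate and glutamate carrier that exports aspartate for Ass1, were called in none, with log2 changes of 0.05 to 0.21 and 0.11 to 0.18. Slc7a2, an arginine transporter, rose from 2324 ± 267 to 5086 ± 1233 FPKM in Irs1 KO (limma adjusted p = 0.00122) and to 4216 ± 1394 in Tbx3 KO (0.0249). Slc38a3, a glutamine transporter of periportal cells, rose in Bcl6 KO by 0.54 ± 0.14 (limma adjusted p = 0.0155) and in Irs1 KO by 0.60 ± 0.14 (0.00609). Gpt2, a mitochondrial alanine aminotransferase, fell by 0.61 in Bcl6 KO (limma adjusted p = 0.00169) and by 0.68 in Irs1 KO (0.000653).

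Periportal marker genes outside nitrogen metabolism did not move as 1 block. Of 17 tested, 7 were called higher and 0 lower in Tbx3 KO, 6 and 1 in Irs1 KO, 4 and 2 in Bcl6 KO, 2 and 1 in Srebf1 KO, and none in Smyd2 KO. Cyp2f2, a cytochrome P450 of periportal cells, rose from 432 ± 147 to 1014 ± 177 FPKM in Tbx3 KO (limma adjusted p = 7.57e-05) and fell to 164 ± 70.6 in Bcl6 KO (1.66e-05), where Cps1 and Arg1 were higher. Hsd17b6, a steroid dehydrogenase, rose in 4 knockouts, by 2.26 in Tbx3 KO, 1.74 in Bcl6 KO, 1.72 in Irs1 KO and 1.65 in Srebf1 KO (limma adjusted p = 3.4e-05, 0.000804, 0.00132 and 0.0221). Cyp17a1, a steroid hydroxylase, rose by 2.47 in Bcl6 KO (limma adjusted p = 6.05e-06) and fell by 1.91 in Irs1 KO (0.000526) and by 1.48 in Srebf1 KO (0.0442). Over all genes tested the median was -0.06, -0.12 and -0.07 in Tbx3, Irs1 and Bcl6 KO. The median change of the 17 was 0.41 in Tbx3 KO, 0.43 in Irs1 KO and 0.06 in Bcl6 KO.

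Genes of the hormone and amino acid responses known to act on the cycle were taken as a list of 20. In Irs1 KO 5 were called higher, in Bcl6 KO 2 and in Tbx3 KO 1, with 0 lower, and none in the other 2. Hnf4a, a nuclear receptor of hepatocytes, rose in 3 knockouts, by 0.50 ± 0.08 in Irs1 KO, 0.42 ± 0.08 in Bcl6 KO and 0.36 ± 0.07 in Tbx3 KO (limma adjusted p = 9.64e-05, 0.000369 and 0.00341). It was not called in Smyd2 KO or Srebf1 KO, where only 0% and 0.197% of all genes were called higher. Tat, tyrosine aminotransferase, a gene induced by glucocorticoids, rose by 1.16 in Irs1 KO (limma adjusted p = 0.00272) and by 0.93 in Bcl6 KO (0.0182). Klf15, a regulator of amino acid breakdown, rose by 0.81 in Irs1 KO (limma adjusted p = 0.00272), as did Ppargc1a, a coactivator induced in fasting, by 0.71 (0.0363). Gcgr, the glucagon receptor, was not called in any knockout, with log2 changes of 0.17 to 0.28.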

How the data were processed

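The authors deposited FPKM, 1 value per gene symbol and liver, for 34 livers. The submitters' processing notes name featureCounts 1.6.4 and, with no role, the builds mm10 and GRCh38. For the aligner, annotation and strand setting nothing is stated in the sources used here. Per the labels' protocols, a stranded kit for total RNA was used. Steps in the low FPKM values were used to estimate depth. In each library 44.5% to 50.4% of the low values of 1-transcript genes lay within 0.05 reads of a whole number, so whole reads were not recovered for a count test. With a library size fixed in advance, 10% would do so by chance. The size was instead searched for to raise this share, so 10% is not its chance level, and the depth is only an estimate. By their digits, the values of Arg1, Ass1, Hal and Nags are single and those of the other 6 genes appear to be sums over transcripts, so levels of different genes across these sets are not on 1 basis.

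Values were transformed as log2(FPKM + 1). Genes had to reach 1 FPKM in 5 or more libraries. A single limma fit (version 3.58.1, R 4.3.3) covered 34 livers in 6 groups, with an intensity trend. P-values are two-sided and Benjamini-Hochberg adjusted over 19295 genes. Changes on this log2(FPKM + 1) scale understate those of low genes. The script was tested on simulated data. The labels number the livers but name no animals, so the p-values reflect the spread between libraries, which may be technical in part. sgGFP and sgLacZ were pooled because the series title names both as control. Samples that share a replicate number did not deviate together (Pearson r of -0.18 to 0.16 over 81 pairs), so no pairing was used.

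The members and lists were chosen with earlier results of these data known. Named genes were the 10 members, up to 4 genes per list and comparison by smallest adjusted p, 6 preset genes (Glul, Slc1a2, Rhbg, Oat, Glud1 and Slc25a13), and the 5 most and 5 least like the members' mean. Gcgr, Alb, and Uroc1 and Gldc in Irs1 KO were named after their values were seen. Alternatives were another pseudocount, other filters, scalings and variance settings, a replicate block, sgGFP alone as control, fits of 2 groups and leaving out each library. A further one, leaving out the 5 livers with over 1500 FPKM of bile duct markers, was chosen after seeing the data.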

Additional observations from a re-analysis of the deposited data

Results flagged for a closer look

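Of 60 groups of values checked (10 genes in 6 groups), 3 held a liver far from the others of its group, and chance flags about 1 group in 20. Asl, the argininosuccinate lyase, stood at 1180 FPKM in sgGFP control replicate 4, against 805 in the next control liver. Nags stood at 72.4 FPKM in Bcl6 KO replicate 3, against 57 in the next liver of that group. Sds, serine dehydratase, stood at 424 FPKM in Smyd2 KO replicate 6, against 238 in the next. Smyd2 KO replicate 6 is also 1 of the 5 livers rich in bile duct markers. Without sgGFP control replicate 4, Asl in Bcl6 KO passed the test.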

How the results depend on the processing

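With 1 library left out, 885 of 1051 values kept their direction and side of the threshold, as did 827 of 901 under the other alternatives. Called under every setting run were Cps1, Ass1, Arg1 and Gls2 in Tbx3 KO, Cps1, Gls2, Slc25a15 and Hal in Irs1 KO, and Cps1 and Arg1 in Bcl6 KO. The number of members called in Bcl6 KO against Irs1 KO (2) was 1 with a pseudocount of 0.1, no filter, quantile normalization or robust variance, and 0 with median scaling, which also took Bcl6 KO against Srebf1 KO from 1 to 0. Smyd2 KO against Tbx3 KO (5) gave 3 with the pseudocount of 0.1 or quantile normalization and 2 with no filter. Bcl6 KO against Tbx3 KO (3) gave 1 with quantile normalization and 5 without the 5 livers rich in bile duct markers, which left Irs1 KO against Smyd2 KO (3) at 1. Array weights gave 5 there. Tbx3 KO against control (7) gave 4 in a fit of the 2 groups alone. That fit ended the calls of Otc (limma adjusted p = 0.124), Asl (0.0799) and Hal (0.0565), and sgGFP alone as control ended those of Asl in Tbx3 KO (0.0626), Ass1 (0.0872) and Asl (0.0508) in Irs1 KO and Gls2 in Bcl6 KO (0.101). Gls2 in Bcl6 KO was also lost with a pseudocount of 0.1 (0.0504), no filter (0.0684), array weights (0.0514) and the fit of 2 groups (0.13), Otc in Tbx3 KO with no filter (0.051) and quantile normalization (0.0505), and Asl in Tbx3 KO with array weights (0.0578). Srebf1 KO against control (0) gave 1, Hal, with array weights (limma adjusted p = 0.03). Other calls were gained as well. Nags passed in Tbx3 KO with median scaling and with sgGFP alone as control (limma adjusted p down to 0.031). Sds passed in Irs1 KO in the fit of 2 groups (limma adjusted p = 0.0445) and in Tbx3 KO with the replicate block (0.0425). In Bcl6 KO, Hal passed with array weights (0.0363) and Asl with quantile normalization (0.0381).

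The replicate block gave 1 member in Srebf1 KO, which was Hal (limma adjusted p = 0.0471), 3 in Bcl6 KO (losing Gls2 at 0.0829 and gaining Asl at 0.0405), 7 in Irs1 KO, 8 in Tbx3 KO and 0 in Smyd2 KO. Of 19295 genes, the block called 566 higher in Bcl6 KO, 701 in Irs1 KO, 0 in Smyd2 KO, 66 in Srebf1 KO and 597 in Tbx3 KO. The main fit called 570, 625, 0, 38 and 225 higher. Lower calls over all genes in Tbx3 KO went from 265 in the main fit to 1334 with the block. The block gave each replicate number its own term, and only Tbx3 KO has a replicate 7. That liver therefore did not enter the Tbx3 KO changes of the block fit. Tbx3 KO replicate 7 is also 1 of the 5 livers rich in bile duct markers, and its part in these counts was not tested. By their labels, same-numbered samples share only a number (3 of 81 pairs had a correlation of deviations over 0.1).

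With 1 library left out, counts ranged from 0 to 2 in Bcl6 KO against Irs1 KO and against Srebf1 KO, 1 to 4 in Bcl6 KO against Tbx3 KO, 4 to 7 in Irs1 KO against control, 0 to 5 in Irs1 KO against Smyd2 KO, 0 to 1 in Irs1 KO against Srebf1 KO and in Srebf1 KO against control (1 without sgGFP replicate 4), and 2 to 6 in Smyd2 KO against Tbx3 KO. Against control, counts ranged from 5 to 9 in Tbx3 KO and from 2 to 4 in Bcl6 KO. Changes near 0 reversed, with log2 ranges of -0.068 to 0.077 for Arg1, -0.058 to 0.14 for Ass1, -0.049 to 0.10 for Slc25a15 and -0.24 to 0.025 for Sds in Smyd2 KO, -0.073 to 0.11 for Ass1 in Srebf1 KO, and -0.020 to 0.21 for Sds in Bcl6 KO. Quantile normalization gave -0.024 for Arg1 in Smyd2 KO and -0.050 for Ass1 in Srebf1 KO, and sgGFP alone as control gave Ass1 -0.023 in Smyd2 KO and -0.036 in Srebf1 KO. Without the 5 livers rich in bile duct markers, Otc was -0.049 in Bcl6 KO, and Arg1 was -0.0059 in Irs1 KO, -0.00058 in Smyd2 KO and -0.0045 in Srebf1 KO. Causes were not tested. Median scaling gave 7 members called in Irs1 KO, 3 in Bcl6 KO and 8 in Tbx3 KO. Nags is the member with the lowest FPKM, and the part of depth in its results was not tested.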
